A study of Homo sapiens with 10 samples.

Results

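The genes described here are 10 genes of negative feedback on, or transcriptional output of, the RAS-ERK pathway: the phosphatases DUSP4, DUSP5 and DUSP6, the Sprouty genes SPRY1, SPRY2 and SPRY4, the Sprouty-related genes SPRED1 and SPRED2, and the ETS factors ETV4 and ETV5. They were chosen by symbol, with no measured value in the rule. All 10 were found among the 26256 genes of the untreated cells' table and among the 55736 genes of the Nutlin-3a table, and all 10 passed the filter on low counts in both. MCF10A is an immortalized, nontransformed breast epithelial line. G12V cells are MCF10A cells into which oncogenic HRas G12V was brought by lentiviral transduction and hygromycin selection, and nothing in the sources used here says that they are a single clone. Neither MCF10A nor G12V cells were treated, and each group has 2 libraries. The other groups are parental MCF10A cells given 10 µM Nutlin-3a or its vehicle DMSO for 4 h, with 3 libraries each. Nutlin-3a blocks the binding of MDM2 to p53, which then accumulates. All groups were grown in medium with epidermal growth factor, insulin, hydrocortisone and cholera toxin, so the controls received a stimulus of the same pathway. Poly(A) RNA was sequenced and reads were counted per gene.

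In this pathway, active RAS recruits RAF kinases, which phosphorylate MEK, which phosphorylates ERK. ERK then drives transcription of proteins that limit it: dual-specificity phosphatases (DUSPs) remove the activating phosphates from ERK itself, while Sprouty and SPRED proteins act further up, at the receptor, RAS and RAF. ETV4 and ETV5, with ETV1 the PEA3 subfamily of ETS factors, are commonly used as transcriptional readouts of receptor and ERK signalling.

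The libraries held 21538593 to 23683975 counts for the untreated cells and 15453226 to 17378734 in the Nutlin-3a experiment. HRAS, the introduced gene, was at 72.6 and 65.9 counts per 1000000 counts (CPM) in MCF10A and at 631 and 515 CPM in G12V, higher by 3.05 on the log2 scale (SE 0.23, edgeR quasi-likelihood test, adjusted p = 0.00165). The counts do not separate the introduced from the endogenous copy. CDKN1A and MDM2, established p53 targets, rose from 654 ± 26.7 to 2916 ± 375 CPM and from 113 ± 10.3 to 656 ± 153 CPM (SD, n = 3) after Nutlin-3a. Of 9 mammary epithelial markers, 7 were called lower in G12V, against 5.95% of all genes tested. The sum over all 9 fell from 7189-8814 to 1365-1668 CPM. KRT14, CDH1 and TP63 were each at or below 0.54 CPM there, while KRT5 was at 936 and 1220 CPM. KRT8 (219 and 172 against 211 and 233 CPM) and KRT18 (318 and 350 against 208 and 200 CPM) were not called. Among 7 mesenchymal markers, 5 were tested and 1, CDH2, was called higher, against 5.01% of all genes tested, with sums of 842-1061 and 1386-1801 CPM. Most of these sums was VIM (774 and 972 against 1230 and 1626 CPM), which was not called. COL1A1 had lower values in G12V (11.5 and 5.86 against 3.25 and 4.64 CPM), and DCN and PDGFRB overlapped between the groups. None of these 3 was called. The leukocyte marker PTPRC had at most 0.045 CPM in any library, CD68 was higher in G12V (37.3 and 72.7 against 12.3 and 12.1 CPM), and the endothelial sums were at most 3.63 CPM. The marker shift runs along with every difference between G12V and MCF10A given below, and its part in them was not tested. In bulk RNA, fewer cells that express a gene and less RNA per cell cannot be told apart.

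The first comparison asked which of these genes differ in cells carrying the oncogene. DUSP4 and DUSP5 rose more than 4-fold in G12V cells. SPRY4 had values 3.14-fold higher and SPRY1 values 0.337 times those of MCF10A, but neither passed the adjusted threshold. The other 6 genes, DUSP6, ETV4 and ETV5 among them, differed by less than 1.5-fold. In numbers, 2 of 10 were called higher and 0 lower, against 5.01% and 5.95% of the 14376 genes tested. Called means an adjusted p under 0.05 with a log2 fold change beyond 0.5 in either direction. At an unadjusted p under 0.05 the number was 4 of 10, against 25.6% of all genes. The median log2 fold change of the 10 was 0.35, beside -0.0011 over all genes tested, and the median absolute value was 0.50 beside 0.36. Both G12V libraries lay above both MCF10A libraries for 6 genes and below them for 2, which holds for 27.5% and 27.4% of all genes tested.

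**Figure D1:**
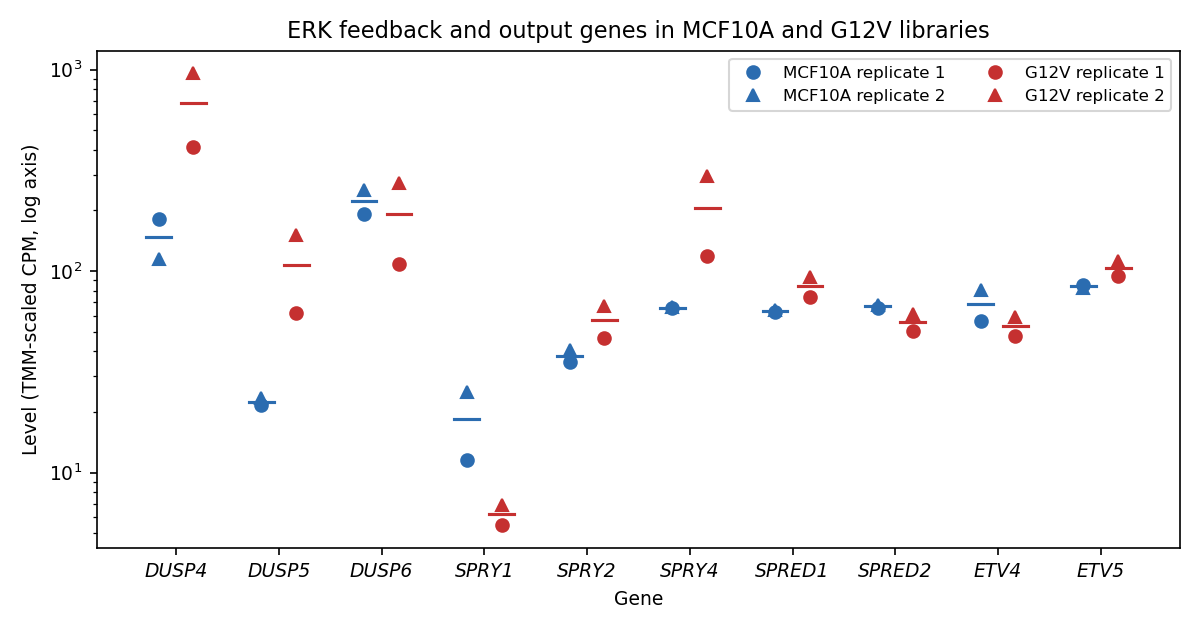
Level of the 10 genes in CPM (log axis) in each MCF10A and G12V library, with circles for replicate 1, triangles for replicate 2 and a bar at the mean of each group. Both G12V libraries lie above both MCF10A libraries for 6 genes, furthest for DUSP4, DUSP5 and SPRY4, and below them for 2, SPRY1 and SPRED2. In G12V replicate 2 is the higher library for each of the 10 genes.

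The phosphatases did not move as 1 group. DUSP4, a nuclear phosphatase of ERK and other MAP kinases (hg19 chromosome 8, 29190579 to 29208267, minus strand), was at 181 and 114 CPM in MCF10A and at 412 and 959 CPM in G12V. The lower G12V library was thus above the higher MCF10A library. Means were 148 ± 46.9 and 686 ± 387 CPM (SD, n = 2), and G12V exceeded MCF10A by 2.22 on the log2 scale (SE 0.46, 95% interval 1.09 to 3.34, adjusted p = 0.0333). DUSP5, a nuclear phosphatase selective for ERK (chromosome 10, 112257625 to 112271302, plus strand), was at 21.5 and 23.5 CPM in MCF10A and at 62.0 and 151 CPM in G12V. The MCF10A libraries nearly coincided, while the G12V libraries lay apart by 2.44-fold. The log2 fold change was 2.24 (SE 0.42, 95% interval 1.21 to 3.28, adjusted p = 0.0251).

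Both calls depended on which libraries were fitted. Without G12V replicate 2 the log2 fold changes were 1.48 for DUSP4 and 1.46 for DUSP5, and without G12V replicate 1 they were 2.70 and 2.75, with both genes called each time. Each such fit leaves a group with 1 library, so the spread comes from the other group alone and the p-values given for a left-out library rest on that pair. Without MCF10A replicate 1 neither was called (adjusted p = 0.180 and 0.228, against at most 0.0365 and 0.0280 in the unpaired alternatives on all libraries), although the log2 fold changes were 2.59 and 2.19. In that fit edgeR called 0 of all genes, with 2830 at an unadjusted p under 0.05.

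DUSP6, the cytoplasmic phosphatase most selective for ERK (chromosome 12, 89741602 to 89746636, minus strand), was at 191 and 252 CPM in MCF10A and at 109 and 274 CPM in G12V. One G12V library was the lowest of the 4 and the other the highest, so the groups overlapped. The difference was -0.21 on the log2 scale (SE 0.43, adjusted p = 0.827), with a 95% interval of -1.27 to 0.84 that leaves room for a change in either direction. Without G12V replicate 1 the value turned to 0.30, and without G12V replicate 2 it was -1.03.

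The Sprouty genes diverged in value. SPRY4, an inhibitor of receptor signalling to RAS and RAF (chromosome 5, 141689992 to 141704620, minus strand), was at 65.4 and 66.4 CPM in MCF10A and at 118 and 295 CPM in G12V. The groups did not overlap, and the spread lay in G12V. The log2 fold change was 1.65 (SE 0.42, 95% interval 0.62 to 2.68), with an adjusted p of 0.0619. DESeq2 and edgeR's exact test, which called 7.73% and 8.53% of all genes higher, also called it higher (adjusted p = 0.00107 and 0.00238), and over the unpaired alternatives on all libraries the adjusted p ran from 0.00107 to 0.0723. Without G12V replicate 2 the log2 fold change was 0.84, and without G12V replicate 1 it was 2.16. The gene was called in the latter fit (adjusted p = 0.000151), where the spread was that of the nearly equal MCF10A libraries, and also with unscaled library totals (adjusted p = 0.0437).

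SPRY1 (chromosome 4, 124317950 to 124324915, plus strand) is an inhibitor of growth factor signalling of the same family. It was at 11.5 and 25.2 CPM in MCF10A and at 5.47 and 6.91 CPM in G12V. Both G12V libraries were below both MCF10A libraries, which themselves differed by 2.19-fold. The log2 fold change was -1.57 (SE 0.42, 95% interval -2.61 to -0.53), with an adjusted p of 0.0712. It was called lower by DESeq2 and by the exact test, which called 8.32% and 9.04% of all genes lower (adjusted p = 0.00482 and 0.00769), within a range of 0.00482 to 0.0816 over the unpaired alternatives on all libraries. Without MCF10A replicate 2 the log2 fold change was -0.90 and without MCF10A replicate 1 it was -2.01, and without G12V replicate 2 the gene was called (adjusted p = 0.0371), on the spread of the MCF10A pair alone. SPRY2, the most widely expressed Sprouty inhibitor (chromosome 13, 80910112 to 80915086, minus strand), was at 35.4 and 40.6 CPM in MCF10A and at 46.5 and 67.3 CPM in G12V. The groups did not overlap, but the log2 fold change of 0.58 (SE 0.24, 95% interval -0.0058 to 1.17) had an adjusted p of 0.200.

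The 250 bases before the start of SPRY1 and SPRY2 are shown because these Sprouty genes had values on opposite sides of the control. They are the first RefSeq entries of each gene on GRCh38.p14, another build than that of the counts, read 5′ to 3′ on the strand of the gene. SPRY1 is chr4:123396545-123396794, plus strand, and SPRY2 is chr13:80341127-80341376, minus strand. Capitals mark matches on either strand to the ETS core CCGGAA, the AP-1 site TGANTCA or the CREB core site TGACG.
SPRY1: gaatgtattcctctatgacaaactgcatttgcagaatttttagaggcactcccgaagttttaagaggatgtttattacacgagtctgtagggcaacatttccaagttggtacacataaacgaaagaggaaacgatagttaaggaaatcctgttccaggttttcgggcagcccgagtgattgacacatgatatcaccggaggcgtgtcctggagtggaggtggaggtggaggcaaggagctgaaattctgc
SPRY2: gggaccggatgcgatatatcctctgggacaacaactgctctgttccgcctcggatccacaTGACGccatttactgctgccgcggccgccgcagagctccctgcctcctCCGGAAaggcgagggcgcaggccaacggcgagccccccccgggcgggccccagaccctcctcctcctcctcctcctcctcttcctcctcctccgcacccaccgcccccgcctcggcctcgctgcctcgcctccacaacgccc
The SPRY1 window holds none of the 3 motifs. The SPRY2 window holds 1 CREB core site, 190 bases before the start, and 1 ETS core, 142 bases before it. Among 35116 RefSeq promoters of the same length, 14.5% hold the ETS core, 6.57% the AP-1 site and 21.2% the CREB core site. SPRY1 has 2 entries, of which the other holds 1 ETS core 67 bases before its start, and SPRY2 has 3, of which the others hold none of the motifs. SPRY4, whose value lay further above the control than that of SPRY2, has 1 entry. It holds 1 CREB core site 68 bases before its start and neither of the other motifs. Of the 10 genes, 6 had an entry in the table. DUSP4, DUSP5, ETV4 and ETV5 did not. Such matches describe letters only.

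The SPRED genes, whose proteins bring neurofibromin to RAS and so favour its inactive form, differed little. SPRED1 (chromosome 15, 38545052 to 38649450, plus strand) was at 62.7 and 64.0 CPM in MCF10A and at 74.1 and 93.8 CPM in G12V. The log2 fold change was 0.41 (SE 0.19, 95% interval -0.059 to 0.87, adjusted p = 0.253). SPRED2 (chromosome 2, 65537985 to 65659656, minus strand) had the opposite order, with 65.7 and 67.8 CPM in MCF10A and 50.2 and 61.4 CPM in G12V. Neither gene's groups overlapped, yet for SPRED2 too the log2 fold change of -0.26 (SE 0.19, 95% interval -0.72 to 0.20, adjusted p = 0.468) did not pass the test.

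The PEA3 factors were not called in either direction. ETV4 (chromosome 17, 41605211 to 41623800, minus strand) was at 56.5 and 80.7 CPM in MCF10A and at 47.8 and 59.1 CPM in G12V, with overlapping groups. Its log2 fold change was -0.36 (SE 0.24, 95% interval -0.95 to 0.23, adjusted p = 0.425). ETV5 (chromosome 3, 185764106 to 185826901, minus strand) was at 85.7 and 82.5 CPM in MCF10A and at 94.1 and 112 CPM in G12V. Its groups did not overlap, and its log2 fold change was 0.29 (SE 0.18, 95% interval -0.14 to 0.73, adjusted p = 0.380). The upper ends of these intervals correspond to less than a doubling for both factors.

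**Figure D2:**
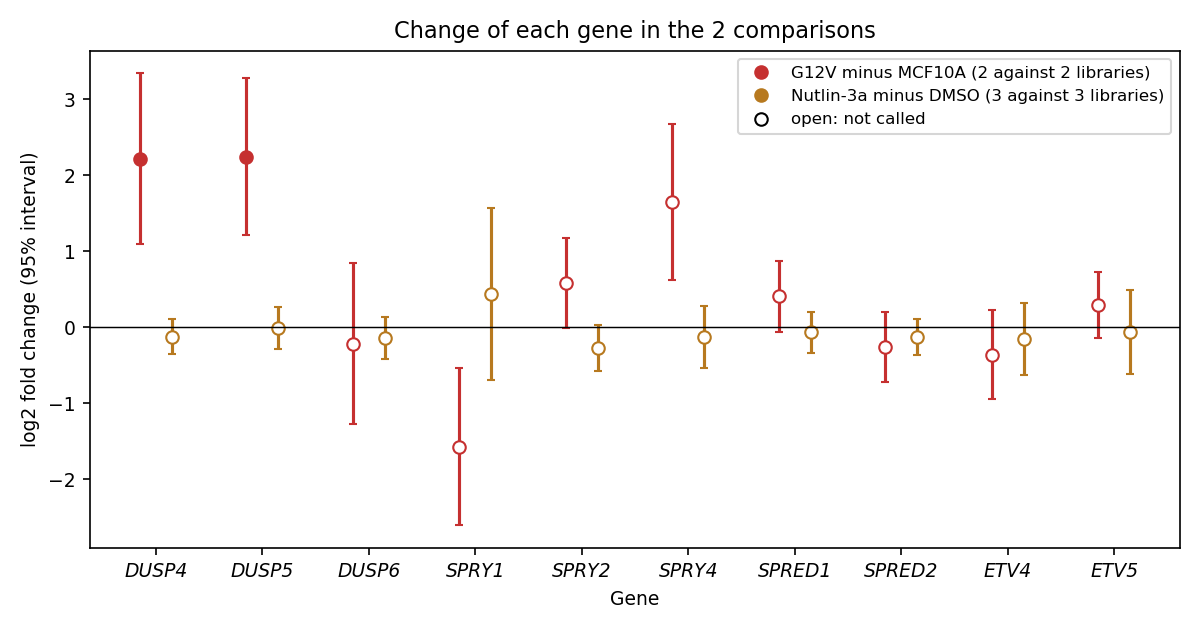
Log2 fold change of the 10 genes with its 95% interval for G12V against MCF10A and for Nutlin-3a against DMSO, with filled points for genes that were called. DUSP4 (2.22) and DUSP5 (2.24) are the filled points, and the intervals of SPRY4 and SPRY1 leave out 0 without a call.

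The G12V libraries differed from each other in these genes. G12V replicate 2 was above replicate 1 for 10 of 10, where 54.9% of all genes tested were. For DUSP4, DUSP5, DUSP6 and SPRY4 the log2 ratio of the replicates was 1.22, 1.28, 1.33 and 1.32, and 2.82% of all genes tested had a ratio over 1 on that scale. Between the MCF10A libraries 8 of 10 were higher in replicate 2, with 49.4% of all genes, but only SPRY1 exceeded 1, at 1.10. What sets the G12V replicates apart was not tested.

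The order of the genes by level also differed between the cells. On the scale of CPM per kilobase of the canonical transcript, DUSP6 was the first in MCF10A (61.1 ± 11.9), followed by ETV4 (29.4 ± 7.33), DUSP4 (26.6 ± 8.45) and ETV5 (20.6 ± 0.56), and SPRY1 had the lowest mean (7.07 ± 3.72, SD, n = 2 throughout). ETV4 and DUSP4, and DUSP4 and ETV5, did not differ beyond their spread, nor did SPRY1, SPRED1 (8.71 ± 0.12) and DUSP5 (9.09 ± 0.55) at the lower end. SPRY1 was below both in MCF10A replicate 1 and above both in replicate 2. In G12V DUSP4 came first (123 ± 69.6), then DUSP6 (52.7 ± 32.2), DUSP5 (43.1 ± 25.5) and SPRY4 (42.2 ± 25.5), and SPRY1 was the last in both libraries (2.38 ± 0.39). DUSP6, DUSP5 and SPRY4 lay within each other's spread in G12V. SPRY4 had stood at 13.4 ± 0.14 in MCF10A. An order like that of G12V was also seen in parental cells of the other experiment, counted on another annotation. With DMSO, DUSP4 came first there (68.5 ± 2.60), then DUSP6 (50.5 ± 3.82), SPRY4 (35.0 ± 5.52) and DUSP5 (26.4 ± 2.77). SPRY1 was the last there too (1.17 ± 0.51, SD, n = 3 for these 5 genes).

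Genes around the called members were looked at as well. Of 10 tested genes within 1 Mb of DUSP4, 0 were called by edgeR, with a median log2 fold change of -0.071. Of 9 around DUSP5, 0 were higher and 2 were lower, ADD3 and PDCD4, named because they were called, and the median was -0.27. Over all genes tested, 5.01% were called higher and 5.95% lower. Within SPRY4 lies SPRY4-IT1 on the same strand, with 3 to 15 counts per library, beside 1440 to 6622 counts for SPRY4.

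Other genes of the pathway were read from lists set by role and not by how the genes moved, though earlier results of these data were known. Of 31, 30 were tested in untreated cells, and SPRY3 was not analysed there. The median log2 fold change of the 30 was 0.26, beside -0.0011 over all genes tested. Of the 30, 4 were called higher and 2 lower, against 5.01% and 5.95% of all genes. Without MCF10A replicate 1 these counts were 0 and 0, and without MCF10A replicate 2 they were 1 and 1. None of 12 cascade components was called by edgeR's quasi-likelihood test, although 2 of the 12 had an unadjusted p under 0.05, a share below that of all genes, and their median was -0.0025. The most abundant of them, the MEK gene MAP2K2, was at 178 ± 24.2 CPM in MCF10A and 180 ± 22.3 CPM in G12V.

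Among 7 other MAP kinase phosphatases 0 were called higher and 2 lower, against 5.01% and 5.95% of all genes tested. Of the 7 values, 4 were above 0, beside 7174 of the 14376 genes tested. DUSP10, which acts on p38 and JNK, was at 37.1 and 57.4 CPM in MCF10A and at 2.65 and 2.94 CPM in G12V, or -4.08 on the log2 scale (SE 0.32, adjusted p = 0.00188). DUSP7, which acts on ERK, was at 123 and 116 CPM in MCF10A and at 64.2 and 62.9 CPM in G12V, or -0.91 on the log2 scale (SE 0.17, adjusted p = 0.0227). The call of DUSP7 was lost whichever library was left out, at adjusted p from 0.0521 to 0.173, and that of DUSP10 without MCF10A replicate 1 (adjusted p = 0.0548). DUSP1, the most abundant of this list, stood 0.92 higher on the log2 scale (SE 0.47, adjusted p = 0.293), and its groups overlapped, with 266 and 494 against 445 and 999 CPM.

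Of 3 other feedback inhibitors tested, SPRED3, the third SPRED gene, rose from 2.73 and 2.82 CPM to 13.9 and 12.5 CPM (log2 fold change 2.25, SE 0.29, adjusted p = 0.00780). ERRFI1, an inhibitor of the EGF receptor, was at 215 and 431 CPM in MCF10A and at 219 and 559 CPM in G12V and was not called (0.27, SE 0.51, adjusted p = 0.818). ETV1, the remaining PEA3 factor, stood 0.45 higher on the log2 scale (SE 0.20, adjusted p = 0.239). Among 7 other output genes the median was 1.08, and 6 values were above 0, beside 7174 of the 14376 genes tested. Against 5.01% and 5.95% of all genes tested, 3 of the 7 were called higher and 0 lower. They were the stress-responsive gene IER3 (1.30, SE 0.20, adjusted p = 0.0140), the AP-1 subunit gene FOSL1 (1.18, SE 0.27, adjusted p = 0.0448) and the receptor gene EPHA2 (1.08, SE 0.23, adjusted p = 0.0349). FOSL1 was not called with unscaled library totals or without a filter (adjusted p = 0.0562 and 0.0539), nor without either MCF10A library or G12V replicate 1 (up to 0.161). EPHA2 was not called without either MCF10A library or G12V replicate 2 (up to 0.194), IER3 without either MCF10A library (0.0548 and 0.107) and SPRED3 without MCF10A replicate 1 (0.116). CCND1, which encodes cyclin D1, was at 397 and 181 CPM in MCF10A and at 394 and 314 CPM in G12V (0.30, SE 0.39, adjusted p = 0.709).

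**Figure D3:**
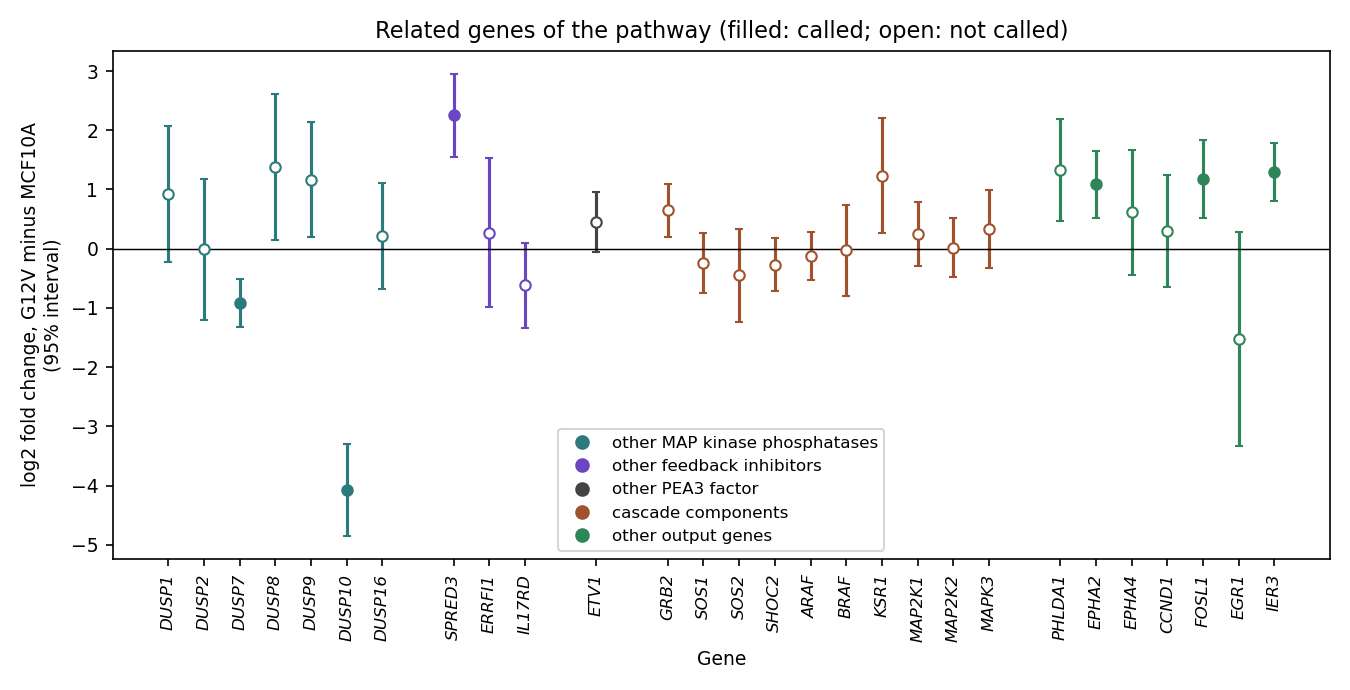
Log2 fold change of G12V against MCF10A with its 95% interval for 28 of the 30 related pathway genes tested, by list, with filled points for called genes. SPRED3, IER3, FOSL1 and EPHA2 lie above 0 and DUSP7 and DUSP10 below it as filled points, and none of the 10 cascade components drawn is filled.

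The second comparison asked whether the genes responded to Nutlin-3a in parental cells. None of the 10 was called in either direction by edgeR's quasi-likelihood test, its exact test or DESeq2. In the unpaired quasi-likelihood fit 0 of 10 had an unadjusted p under 0.05, against 3.42% of all genes. The background here was low, with 0.155% of 13529 genes called higher and 0.0148% lower by the quasi-likelihood test, 0.473% and 0.140% by the exact test. DESeq2, which gave an adjusted p for 12737 genes, called 0.487% and 0.228% of these. With the replicate number as a block, under which 0.702% of genes were higher and 0.517% lower, none of the 10 was called either. In that fit 1584 of 13529 genes had an unadjusted p under 0.05 by the quasi-likelihood test. The adjusted p of the 10 then ran from 0.257 (SPRY2) to 0.987 (DUSP5). The SEs and intervals below are of the unpaired fit. With the block each SE was smaller, from 0.071 (DUSP4) to 0.19 (SPRY1), beside 0.10 and 0.49 for these 2 genes. The median log2 fold change of the 10 was -0.12, beside 0.0066 over all genes tested. Of the 10 values 9 were below 0, where 6517 of the 13529 genes tested were. The groups were apart for 2 of 10, DUSP4 and SPRY2, both lower, against 4.38% of all genes, and for 0 of 10 in the other direction, against 3.70%.

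DUSP4 was at 397, 372 and 372 CPM with DMSO and at 364, 325 and 360 CPM with Nutlin-3a (log2 fold change -0.12, SE 0.10, 95% interval -0.35 to 0.11). SPRY2 was at 23.2, 21.8 and 19.5 CPM with DMSO and at 18.9, 18.2 and 16.2 CPM with Nutlin-3a (-0.28, SE 0.13, 95% interval -0.58 to 0.027). In the unpaired quasi-likelihood fit SPRY2 had the lowest unadjusted p of the 10, and the adjusted p was 0.9997 for each of them. DUSP5 was at 61.1, 73.4 and 62.0 CPM with DMSO and at 58.1, 70.4 and 67.1 CPM with Nutlin-3a, and the interval of its log2 fold change ran from -0.28 to 0.27. DUSP6 was at 183 ± 13.9 and 166 ± 19.9 CPM (SD, n = 3), with an interval of -0.42 to 0.13. These intervals leave out a doubling or a halving for the 3 phosphatases.

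SPRY1 had the fewest counts, 31 to 110 per library, and was at 3.04 ± 1.33 and 4.14 ± 2.76 CPM, with an interval of -0.69 to 1.57. SPRY4 was at 178, 195 and 142 CPM with DMSO and at 176, 175 and 119 CPM with Nutlin-3a, and in both groups replicate 3 was the lowest. The same held for ETV5, with 90.9, 67.1 and 58.3 against 85.3, 75.9 and 46.4 CPM, and for ETV4, with 53.8, 40.9 and 34.2 against 46.4, 39.1 and 30.3 CPM. Within the pairs of the same number, 5 of 10 genes were lower with Nutlin-3a in all 3 pairs, namely DUSP4, DUSP6, SPRY2, SPRY4 and ETV4, against 17.7% of all genes, and 0 of 10 were higher in all 3, against 15.0%. None of the 5 was called with the pairs as a block. SPRED1 was at 125 ± 15.5 and 119 ± 6.52 CPM and SPRED2 at 62.1 ± 4.66 and 56.9 ± 2.09 CPM. No epithelial, mesenchymal, leukocyte or endothelial marker was called in this experiment.

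Of the related genes, 30 were tested and 0 were called by edgeR, with 1 at an unadjusted p under 0.05, near the share over all genes. That gene was KSR1, which encodes a scaffold of the cascade and is named here after its value was seen (log2 fold change 0.77, SE 0.24, adjusted p = 0.810). The most abundant gene of each list gave log2 fold changes of -0.054 for DUSP1, 0.26 for EPHA2, -0.36 for ERRFI1, -0.090 for ETV1 and -0.045 for MAP2K1. With the replicate block ERRFI1 was at -0.38 (quasi-likelihood test, adjusted p = 0.0327). It passed the threshold on p but not that of 0.5 on the log2 fold change.

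The parental cells of both experiments can be set side by side on the 22805 symbols that the tables share. The tables were made on different annotations, cells untreated in one were given DMSO in the other, and no test was run between them. On this scale DMSO cells had 2.63, 2.98 and 2.67 times the MCF10A level of DUSP4, DUSP5 and SPRY4, and 0.171 times that of SPRY1. Of 12069 genes tested in both tables, 15.9% had a ratio above 2 or below 0.5. DUSP5 ranged from 62.7 to 73.8 CPM with DMSO, beside 66.3 and 147 CPM in G12V and 22.2 and 22.7 CPM in MCF10A. SPRY4 ranged from 143 to 196 CPM with DMSO, beside 126 and 287 CPM in G12V. DUSP4 was at 374 to 418 CPM with DMSO. It lay below both G12V libraries, at 441 and 930 CPM, and above both MCF10A libraries, at 186 and 111 CPM. For SPRY4 all 3 DMSO libraries lay between the G12V libraries, and for DUSP5 1 did while 2 lay below both. Culture, annotation and vehicle cannot be told apart in this difference. The other ratios were 2.02 for SPRED1, 0.582 for SPRY2, 0.648 for ETV4, 0.849 for DUSP6, 0.882 for ETV5 and 0.953 for SPRED2.

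**Figure D4:**
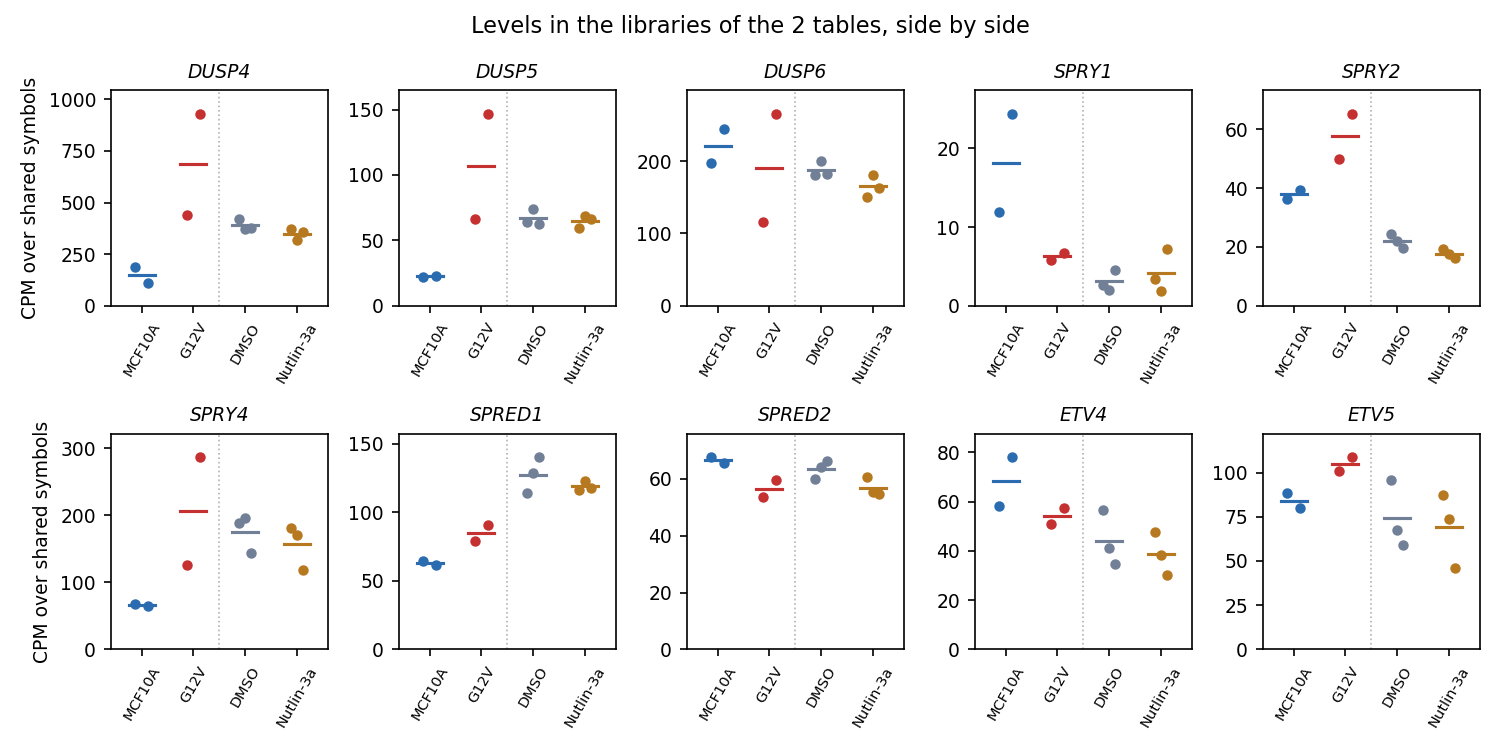
Level of each of the 10 genes in CPM over the 22805 shared symbols, with 1 point per library, a bar at the mean of each of the 4 groups and a dotted line between the separately made tables. DMSO and Nutlin-3a libraries overlap for 8 genes and lie apart for DUSP4 and SPRY2. For DUSP4, DUSP5 and SPRY4 the DMSO libraries lie nearer to the lower G12V library than to MCF10A.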

How the data were processed

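RNA-seq counts of MCF10A and G12V cells (2 libraries each) and of MCF10A cells given DMSO or Nutlin-3a (3 each) were analysed, with groups taken from the labels. Per the submitters' processing notes and the study's methods, the authors used TopHat to align reads to hg19 and HTSeq to count them per gene, and deposited the raw counts, without normalization, in a separate table for each experiment. Annotations and the strand setting are not given in the sources used here, and the kit does not mark strand. The labels call the replicates biological but do not say whether cultures were separate, so p-values measure the spread between these libraries, which may be technical in part. Replicates varied at least 23.1 times more than sampling noise, so none was a repeated deposit.

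Each comparison was fitted over all genes of its own table with edgeR 4.0.16 in R 4.3.3 (limma 3.58.1), using filterByExpr defaults, TMM, the quasi-likelihood F-test and Benjamini-Hochberg adjustment, at the thresholds of the study's methods. The prior count was 0.125, the SE was taken as the size of the log2 fold change divided by the root of the F statistic, and intervals cover 95%. CPM use TMM-scaled library sizes, or library sums over shared symbols where the tables are set side by side. The fit was first tested on simulated data. The alternatives were DESeq2 1.42.0, the exact test, relative log expression factors, unscaled library totals, no filter, more than 1 CPM in at least 2 libraries, a replicate block, a prior count of 2 and leaving out each library.

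Members, lists and tests were chosen with earlier results of these data known. Named are all members, the called genes of the related lists, the gene of each list with the highest mean CPM, HRAS, CDKN1A, MDM2 and genes overlapping a member. Some genes of the related lists enter the counts but are not reported here. With Nutlin-3a, same-numbered libraries deviated together from their groups (correlations 0.64, 0.65 and 0.68, others -0.50 to -0.21), so the numbers pair these libraries, by the data and not by the labels. Lengths are of canonical transcripts in GENCODE v44 on GRCh37. Python 3.11.15, numpy 2.4.6, pandas 2.3.3 and matplotlib 3.10.9 did the rest.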

Additional observations from a re-analysis of the deposited data

How the results depend on the processing

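In G12V against MCF10A, the 2 members called higher became 4 with the replicate number as a block (DUSP4, DUSP5, SPRY2 and SPRY4, where 14.4% of all genes were higher and 14.5% lower) and 0 to 3 when a library was left out, and the 0 called lower became 1 (SPRY1) with DESeq2, the exact test or the block, and 0 to 1 when a library was left out. Related genes called higher went from 4 to 7 with the exact test, 10 with the block and 0 to 5 with a library left out, and those called lower from 2 to 4 with the block and 0 to 2 with a library left out. Libraries of the same number correlated at 0.54 in their deviations here, and those of different number at -0.54. With 2 libraries per group these values mirror each other by construction, so they do not settle whether the numbers pair the libraries. The main test took them as unpaired. The counts of 0 higher come from leaving out MCF10A replicate 1, and each omission here leaves a group with 1 library, assumed to vary like the other group. Over all genes, calls went from 1575 to 2526 with the exact test, 4158 with the block and 0 to 2129 with a library left out, and with Nutlin-3a from 23 to 91 with DESeq2, 83 with the exact test, 99 without a filter, 165 with the block and 7 to 11 with a library left out. The cause was not tested. With Nutlin-3a no member and no related gene was called under any alternative, the block included. ERRFI1 had an adjusted p under 0.05 with the block, but its log2 fold change of -0.38 was within the threshold of 0.5.

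Signs turned only when a library was left out. In G12V the log2 fold change then ran from -1.03 to 0.30 for DUSP6, -0.16 to 1.00 for CCND1, -0.56 to 0.85 for ERRFI1 and -0.11 to 0.16 for MAP2K2. With Nutlin-3a it ran from -0.067 to 0.082 for DUSP5, -0.23 to 0.85 for SPRY1, -0.25 to 0.033 for SPRY4, -0.16 to 0.017 for SPRED1, -0.31 to 0.040 for ETV4, -0.24 to 0.16 for ETV5, -0.27 to 0.20 for DUSP1, -0.32 to 0.11 for ETV1 and -0.17 to 0.097 for MAP2K1. None of these was called with all libraries. With Nutlin-3a the SE of SPRY1, the member with the fewest counts (31 to 110), was 0.49 without and 0.19 with the block. The number of libraries, 2 per group, limits the untreated comparison.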
